A study of Mus musculus with 64 samples.

Results

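The genes Ttr, Enpp2, Sostdc1, F5, Folr1, Kl, Abca4, Clic6, Slc4a5 and Slc13a4 are typical of the choroid plexus, and their transcripts were followed here in the hippocampus of WT and AS mice. They were chosen by name as 10 of the 55414 gene IDs counted in the acute experiment and 10 of the 55573 counted in the continuous experiment. Of the 64 RNA-seq libraries, the 44 from hippocampus were used, with the 20 from liver as a source of comparison levels. The study asked how loss of UBE3A alters the transcriptional response to corticosterone (CORT), the main glucocorticoid of mice.

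All mice were males of 10 to 18 weeks from a cross of C57BL/6J and 129sv. AS mice carried the tm1Alb deletion of exon 5 on the maternal allele of Ube3a, so that non-neuronal cells, which do not silence the paternal allele, still had a working copy. WT mice were their littermates. In the acute experiment, 6 WT and 6 AS mice received vehicle (ethanol in PBS) and 6 WT and 6 AS mice received 3 mg/kg CORT under the skin, and the left hippocampus was collected after 3 h. In the continuous experiment, 5 WT and 5 AS mice carried a cholesterol pellet as vehicle and 5 WT and 5 AS mice a pellet with 20 mg CORT for 5 days. Mice are named here by the number of their hippocampal library, and the same number in the other experiment is another mouse. The study left the continuous libraries H9 (AS vehicle) and H13 (WT vehicle) out as technical outliers, and tests below use the other 18 mice unless stated.

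The choroid plexus is a folded epithelium over fenestrated vessels that hangs in the brain ventricles and secretes cerebrospinal fluid. It lies against the hippocampus along the choroid fissure, so that a strip of it can come along when the hippocampus is lifted out. Its epithelial cells make carrier proteins, hormone-processing enzymes and transporters for ions, folate and retinoids at levels that neurons and glia do not reach. In RNA from whole tissue, fewer cells of a type cannot be told apart from less RNA per cell.

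Between 19049461 and 21783009 reads per hippocampal library were counted on genes. Levels are given in CPM, which are read counts scaled to a common library size after TMM normalization. The floor used here was 3 counts, which correspond to 0.138 to 0.157 CPM before TMM normalization. After it, 3 counts can lie slightly outside this range. This floor covers counting error only. Fkbp5, a classical GR target, was at 48.5 to 70.6 CPM in the 12 acute vehicle mice and at 102.5 to 126 CPM in the 12 acute CORT mice, and in the continuous experiment at 42 to 88 CPM with vehicle and 97.5 to 113 CPM with CORT, so that treated and untreated mice did not overlap. Ube3a counts did not separate the genotypes (52.1 to 98.2 CPM in WT and 63.7 to 97.9 CPM in AS mice), and since reads from exons outside the deletion are counted too, they do not check the genotype labels. The summed level of 12 genes of hippocampal neurons was 1271 to 2501 CPM in the 42 libraries kept, but 515.4 CPM in H9 and 558.5 CPM in H13. H9 also held 3009 CPM of 12 genes of thalamus and habenula, against 126 to 465.6 CPM in the libraries kept.

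Among the secreted proteins, Ttr, which carries thyroid hormone and retinol-binding protein, spread most. In the acute experiment it ranged from 1 count in H24 (AS CORT), which is under the floor, to 970 CPM in H6 (WT vehicle), at least a 6608-fold range with a median of 1.96 CPM. H6 stood alone there, since the next mouse, H3 of the same group, had 51.3 CPM. In the continuous experiment Ttr ranged 4077-fold, from 2.98 CPM in H3 (WT CORT) to 12147 CPM in H13, with a median of 65.7 CPM. Among the mice kept, H17 with 2699 CPM and H6 with 1172 CPM were highest, and both were WT vehicle mice. The next were H16 (AS CORT, 386 CPM) and H2 (AS vehicle, 260 CPM), while the other WT vehicle mice, H1 and H4, had 43.6 and 50.7 CPM. The within-group SD of log2 CPM of Ttr was 2.73 over the 24 acute mice and 2.24 over the 18 continuous mice.

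Enpp2, the secreted enzyme autotaxin that makes lysophosphatidic acid and is also made by oligodendrocytes, was well counted in every mouse. It ranged from 54.4 to 481 CPM in the acute experiment and from 77.3 to 4816 CPM in the continuous experiment, with the same mice at the top, H6 and H13. Its within-group SD of log2 CPM, 0.56 and 0.89, was well under that of Ttr. Sostdc1, a secreted antagonist of BMP and Wnt signalling, ranged from 1.59 to 10.7 CPM and from 1.82 to 71.7 CPM. F5, coagulation factor V, ranged from 2 counts to 14.8 CPM and from 0.378 to 156 CPM. H6 and H13 were again the highest for both.

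Of the receptors, Folr1, folate receptor alpha, was at the limit of detection in the acute experiment, with under 3 counts in 9 of 24 mice and none in 4 of them. It reached 4.14 CPM in acute H6, and in the continuous experiment 17 CPM in H17, 8.14 CPM in H6 and 88.5 CPM in H13, against a median of 0.967 CPM. Kl, klotho, which acts as a coreceptor for FGF23 and is also expressed by hippocampal neurons, varied least. It lay between 24.8 and 63.8 CPM in the acute experiment and between 27.7 and 435 CPM in the continuous experiment, with a within-group SD of log2 CPM of 0.30 and 0.52.

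Among the transporters, Abca4, a flippase for retinoids, ranged from 0.881 to 5.31 CPM in the acute and from 1.03 to 68.1 CPM in the continuous experiment. Slc13a4, a sodium-sulfate cotransporter that meningeal cells also express, ranged from 1.05 to 9.89 CPM and from 1.82 to 74.8 CPM. Slc4a5, a sodium-bicarbonate cotransporter, was under 3 counts in 13 of 24 acute mice and in 3 of 20 continuous mice, and reached 7.75 CPM in acute H6 and 95.9 CPM in H13. Clic6, an intracellular chloride channel protein, had under 3 counts in 4 acute mice and reached 14 CPM in acute H6 and 219 CPM in H13. As with the secreted proteins, acute H6 and continuous H13 were the highest mice for all 4 transporters.

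**Figure D1:**
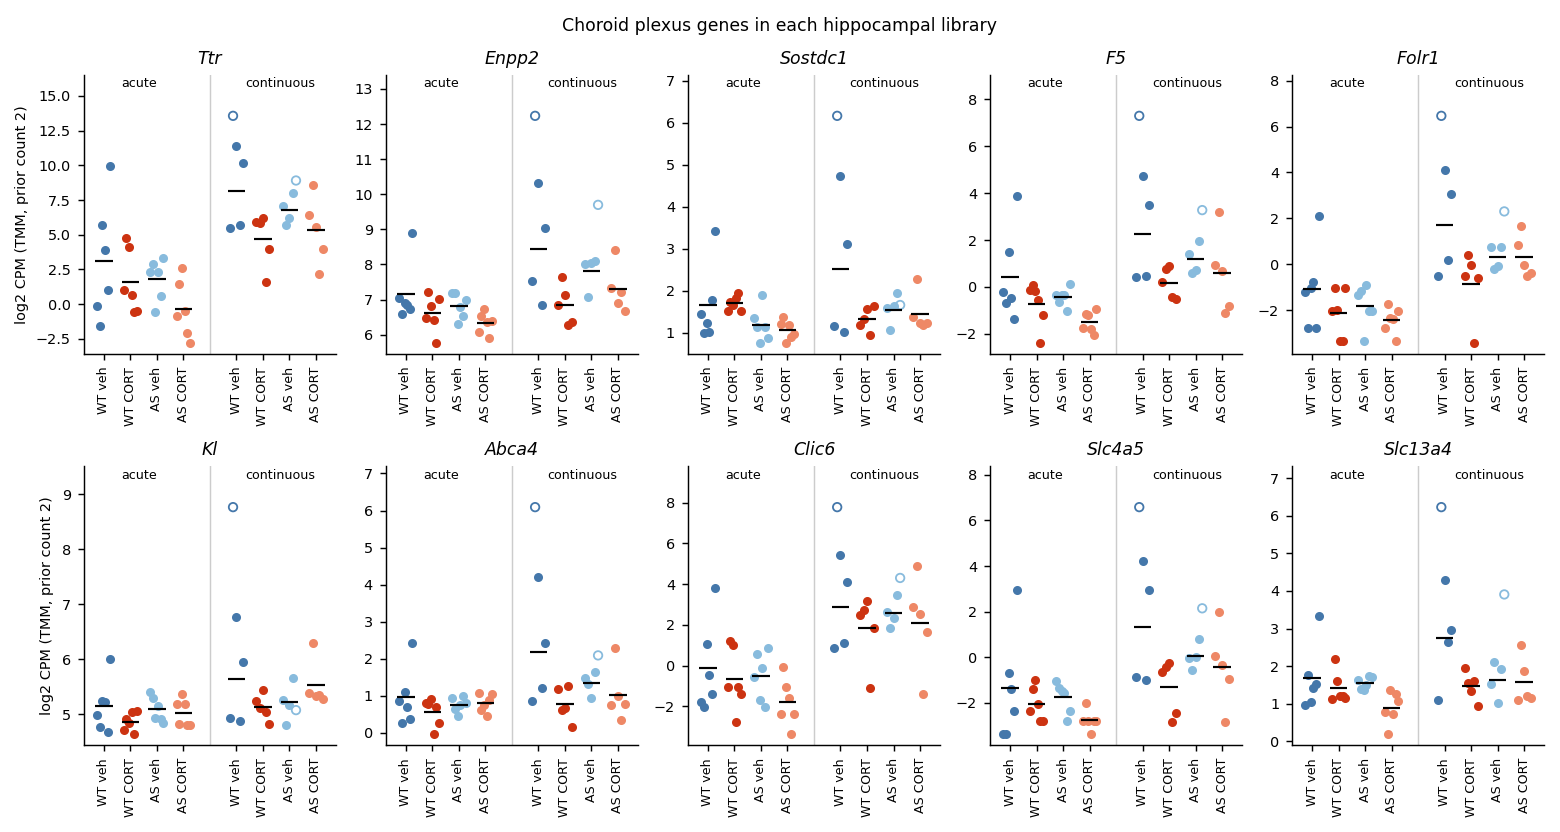
Level of each of the 10 genes in each hippocampal library (points; open circles are H9 and H13) on a log2 CPM axis, by group in the acute and continuous experiment, with bars at the mean of the mice kept. Acute H6 (Ttr 970 CPM) and continuous H13 (Ttr 12147 CPM), both WT vehicle, are the highest mouse of their experiment in every panel, whereas continuous H6 (Ttr 1172 CPM) lies below H9 or H16 for Enpp2, Slc13a4, Clic6 and Kl.

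Levels can be compared between genes only per length, and the exons of each gene in GENCODE M21 were used for this. In CPM per kilobase of exon, the medians of the continuous experiment ran from Ttr (55.4) and Enpp2 (29.9) through Kl (4.12), Sostdc1 (1.49), Clic6 (1.49), Slc13a4 (0.72), Folr1 (0.421), F5 (0.214) and Abca4 (0.183) to Slc4a5 (0.124). Sostdc1 exceeded Clic6 in 11 of 20 mice, and Abca4 exceeded Slc4a5 in 11, so these neighbours did not differ beyond the spread. In the acute experiment Enpp2 (18.5) and Kl (3.34) came before Ttr (1.65), and Ttr exceeded Sostdc1 (1.32) in 13 of 24 mice. Kl exceeded Ttr in 15 of 24 acute mice, so the place of Ttr among Kl and Sostdc1 was not set beyond the spread there, while in the continuous experiment Ttr exceeded Enpp2 in 16 of 20 mice.

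RefSeq promoter windows, 250 bases before to 50 bases after a gene's start on GRCm38.p6, were used for 5 of the 10 genes, F5, Abca4, Kl, Slc4a5 and Slc13a4. They were searched on both strands for TAATCC, the core bound by OTX2, a homeodomain factor of choroid plexus epithelium, and for AGAACA, a GR half-site, neither of which contains the other. Over all 32851 promoters of the table, 7.06% held the first and 19% the second. Of the 5, Abca4 held 1 match to TAATCC, Kl and Slc4a5 held 1 half-site each, and F5 and Slc13a4 held neither. The 3 windows with a match are printed, with the match in capitals. The RefSeq start of Slc4a5 lies within the gene as GENCODE M21 draws it.
Abca4 (chr3:122044210-122044509, plus strand): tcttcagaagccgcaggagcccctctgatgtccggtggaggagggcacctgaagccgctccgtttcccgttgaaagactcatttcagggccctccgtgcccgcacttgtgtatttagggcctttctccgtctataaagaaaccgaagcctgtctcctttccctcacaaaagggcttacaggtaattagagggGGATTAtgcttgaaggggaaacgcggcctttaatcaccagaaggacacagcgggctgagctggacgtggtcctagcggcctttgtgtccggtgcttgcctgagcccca
Kl (chr5:150952357-150952656, plus strand): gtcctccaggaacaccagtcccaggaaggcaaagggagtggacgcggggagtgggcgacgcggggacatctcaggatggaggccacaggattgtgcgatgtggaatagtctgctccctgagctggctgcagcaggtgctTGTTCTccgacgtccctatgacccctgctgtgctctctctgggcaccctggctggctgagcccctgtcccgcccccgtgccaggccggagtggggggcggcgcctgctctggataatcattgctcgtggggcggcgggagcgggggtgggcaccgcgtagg
Slc4a5 (chr6:83237125-83237424, plus strand): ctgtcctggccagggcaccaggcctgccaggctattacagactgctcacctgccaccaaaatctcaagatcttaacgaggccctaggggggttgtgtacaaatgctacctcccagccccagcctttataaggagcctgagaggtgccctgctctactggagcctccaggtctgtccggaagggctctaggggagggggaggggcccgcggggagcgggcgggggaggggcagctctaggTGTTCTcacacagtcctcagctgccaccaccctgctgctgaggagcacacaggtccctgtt

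The 10 genes moved together from mouse to mouse within groups. After group means of log2 CPM were subtracted, the median r over the 45 pairs was 0.84 in the 18 continuous mice, from 0.58 for Clic6 and Slc13a4 to 0.97 for Ttr and Clic6. Of these pairs, 40 passed an adjusted p-value of 0.05 for Pearson's r and 33 for Spearman's rho, by permutation of mice within groups and adjustment over the 90 pairs of both experiments. Ttr and Clic6 had an r of 0.97 and a rho of 0.98 (permutation p = 1e-05 for each, the smallest that 100000 permutations can give, adjusted p = 0.0001 and 0.000129), and r was 0.98 without the 2 mice farthest from the median. Ttr and Slc4a5 had an r of 0.97 and a rho of 0.97, and Ttr and F5 an r of 0.94 and a rho of 0.94, with the same permutation p. The weakest partner of Ttr was Slc13a4 (r = 0.64, permutation p = 0.0194, adjusted p = 0.0277; rho = 0.53, permutation p = 0.0494, adjusted p = 0.0794).

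In the 24 acute mice the median r was 0.69, with 26 of 45 pairs past the threshold by r and 20 by rho. The relation of Ttr and Clic6 held (r = 0.91, rho = 0.89, permutation p = 2e-05 and adjusted p = 0.000164 for each), with r = 0.86 without the 2 mice farthest from the median. That of Ttr and Sostdc1 did not pass (r = 0.52, permutation p = 0.0865, adjusted p = 0.0977; rho = 0.24, permutation p = 0.296, adjusted p = 0.333), and r was -0.03 without the 2 farthest mice. Without H6 the median r over the acute pairs was 0.32, so that much of the acute correlation rested on this mouse. In the continuous experiment the median r stayed between 0.79 and 0.88 when each mouse was left out in turn, and was 0.88 with all 20 mice.

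**Figure D2:**
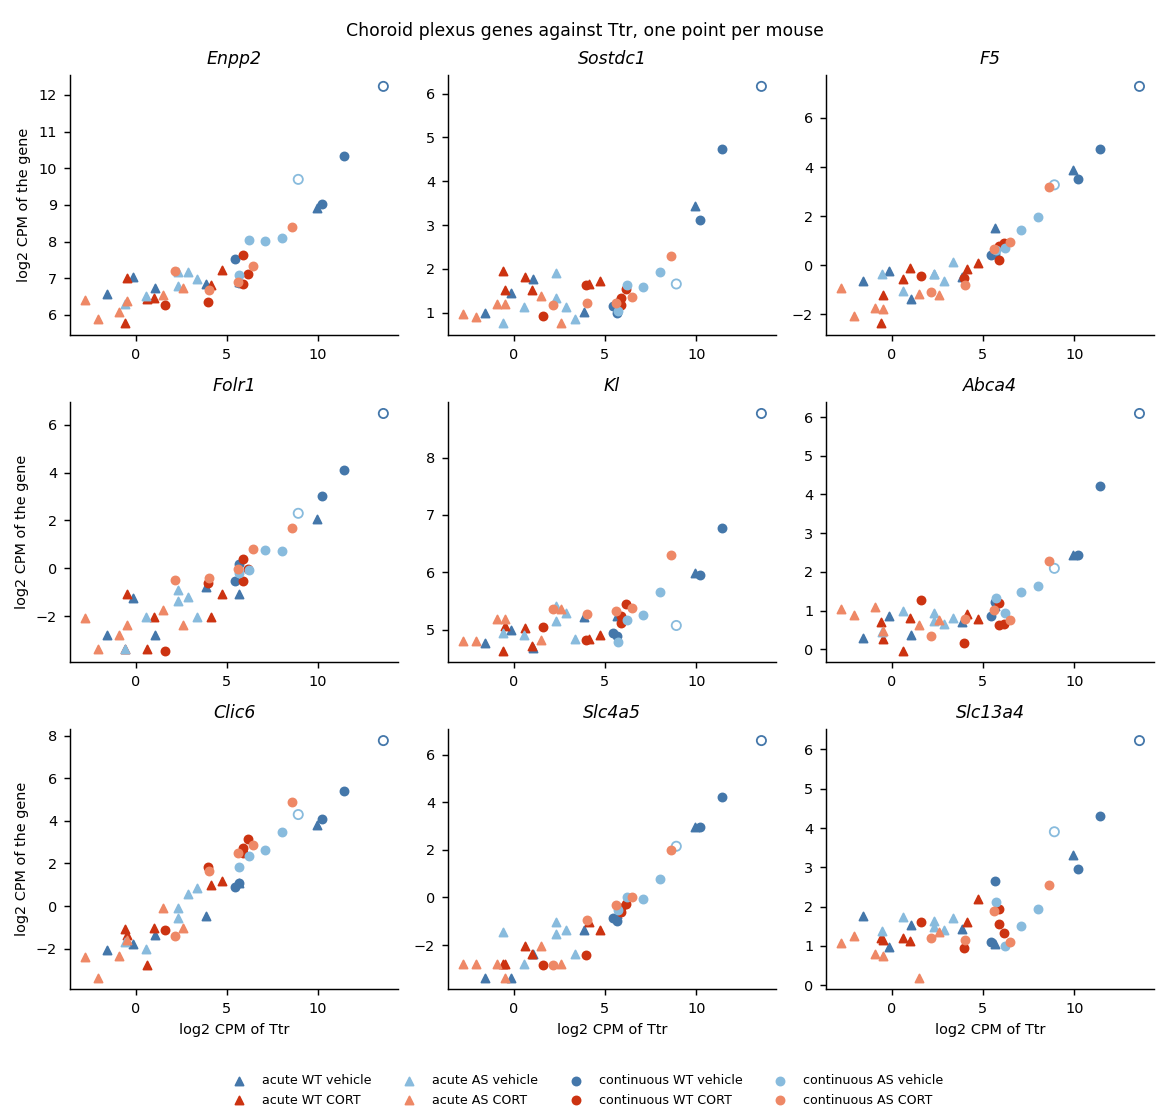
Log2 CPM of 9 genes (vertical axes) against log2 CPM of Ttr (horizontal axes), one point per mouse, triangles for the acute and circles for the continuous experiment, with H9 and H13 as open circles. Clic6 follows Ttr over the whole range (r = 0.91 acute, 0.97 continuous), whereas Kl, Sostdc1, Abca4 and Slc13a4 lie on a floor in mice with little Ttr and rise above it in those with most.

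In the mice with most Ttr, 4 of the other 9 genes came in a similar proportion to it. The excess over a mouse with little Ttr was taken per 1000 CPM of excess Ttr, with H3 as the base in the continuous experiment and the median of the other 5 WT vehicle mice in the acute experiment. The excess of Enpp2 was 390 in H13, 447 in H17, 379 in continuous H6 and 379 in acute H6. That of Kl was 33.1, 28.3, 24.6 and 33.2 in the same mice. That of Slc4a5 was 7.89, 6.94, 6.52 and 7.90, that of Clic6 was 18.0, 15.8, 14.1 and 14.1, and that of Folr1 was 7.28, 6.32, 6.96 and 3.93. That of Abca4 was 5.41, 5.95, 2.53 and 3.90, that of Slc13a4 was 5.92, 6.19, 4.05 and 7.54, that of Sostdc1 was 5.75, 9.18, 5.82 and 8.69, and that of F5 was 12.8, 9.56, 9.03 and 14.6. These 4 libraries came from 2 experiments, and their ratios stayed within 1.5 times of each other for Enpp2, Kl, Slc4a5 and Clic6 but not for Folr1, Abca4, Slc13a4, Sostdc1 and F5.

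H9 and H16 did not share the proportions of Enpp2, Kl and Clic6, while Slc4a5 was nearer to them, at an excess of 9.003 in H9 and 10.1 in H16. In H9 the excess of Enpp2 was 1577 and that of Kl 1.34 per 1000 CPM of Ttr, with 40.3 for Clic6, and its myelin list (12 genes) summed to 21289 CPM against 1849 to 7304 CPM in the libraries kept. In H16, the AS CORT mouse with most Ttr, the excess was 75.0 for Clic6, 120 for Kl and 687 for Enpp2, with 8.12 for Folr1 and 7.74 for Sostdc1, which lay near the 4 mice. H16 had the highest summed level of 12 ependymal genes of the libraries kept, 82.5 CPM.

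Of the other 24 genes of a choroid plexus list, all 24 were highest in H13 in the continuous experiment, 22 were highest in H17 among the mice kept, and 22 were highest in H6 in the acute experiment. The exceptions were Car12, a membrane-bound carbonic anhydrase, and Slc29a4, a monoamine transporter, which were at 23.3 to 43.2 and 42.3 to 95.6 CPM in the acute mice. Kcnj13, a potassium channel of the plexus, was at 65.5 CPM in H13, 11.6 in H17, 5.23 in continuous H6 and 5.7 in acute H6, and at 2.88 CPM or less in every other hippocampal library. Aqp1, the water channel of its apical membrane, was at 90.9, 15.2, 7.29 and 6.97 CPM in the same mice and at 2.74 CPM or less elsewhere. Kcne2, a potassium channel subunit, was at 60.6, 17.5, 5.44 and 2.83 CPM, with 2.22 CPM or less elsewhere. Cldn2, a claudin of leaky tight junctions, was at 70.3, 11, 6.23 and 5.21 CPM, with 2.70 CPM or less elsewhere. Otx2 was at 54.6, 12.3, 4.7 and 5.55 CPM, but it was also at 17.6 CPM in H9 and 7.38 CPM in H16. Within groups, the mean log2 CPM of those of the list that were tested correlated with Ttr at r = 0.93 (rho = 0.90) over the 18 continuous mice and 0.60 (rho = 0.34) over the 24 acute mice, which share library depth and dissection.

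Enpp2, and in the acute mice Folr1, also moved with myelin. Its r with the mean log2 CPM of 12 myelin genes was 0.85 (rho = 0.93) over the acute mice and 0.74 (rho = 0.69) over the continuous mice, and that with the other choroid plexus genes was 0.77 and 0.81. For Folr1, often under the floor in the acute mice, the r with the myelin list was 0.74 (rho = 0.77) in the acute and 0.46 (rho = 0.47) in the continuous mice, and for Ttr it was 0.54 and 0.40. The part of oligodendrocytes in these levels was not tested.

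**Figure D3:**
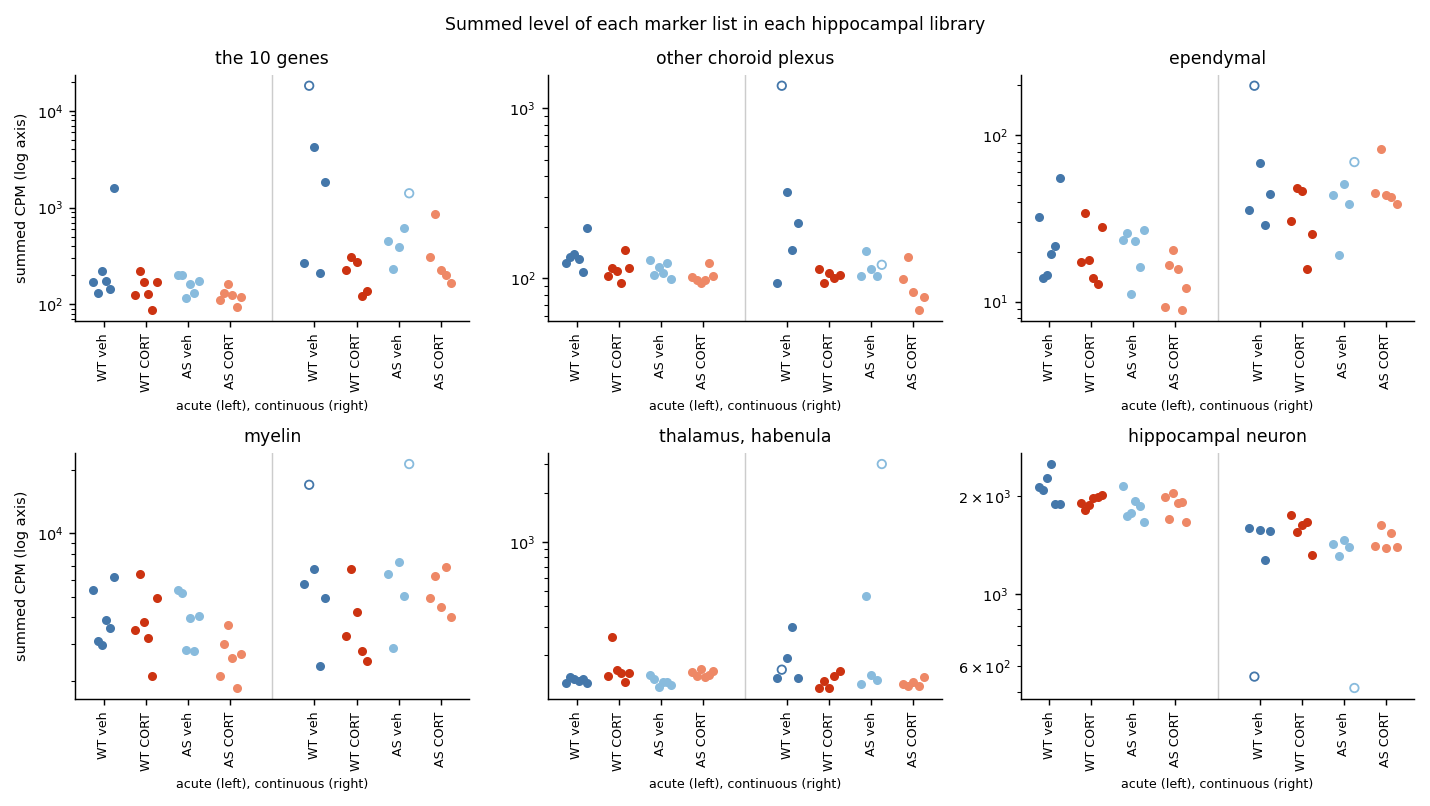
Summed CPM (log axes) of the 10 genes and of 5 marker lists in each hippocampal library, by group in the acute and the continuous experiment, with H9 and H13 as open circles. Among the mice kept, the highest sum of the other choroid plexus genes, like that of the 10, is in WT vehicle (197.6 CPM acute, 320.3 CPM continuous). Continuous AS CORT mice reach 865.4 CPM for the 10 genes and AS vehicle mice 611 CPM, but the other list reaches 132.7 and 144.2 CPM in these groups. The hippocampal neuron list is low in H9 (515.4 CPM) and H13 (558.5 CPM), and the thalamus list is high in H9 (3009 CPM).

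Continuous CORT in WT mice was the comparison in which these genes passed the test. A gene was tested when more than 20 normalized counts were found in at least 3 mice of a group, which 9 of the 10 passed, all but Slc4a5, and since most of these genes are high in WT vehicle mice, a count over those that passed is no support by itself. Ttr was at 43.6, 50.7, 1172 and 2699 CPM in the 4 WT vehicle mice (991 ± 1256, mean ± SD) and at 2.98, 15.4, 58.4, 59.4 and 72 CPM in the 5 WT CORT mice (41.6 ± 30.4). The 2 highest vehicle mice lay above every CORT mouse, and the other 2 lay among them.

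Folr1 was at 0.6, 1.05, 8.14 and 17 CPM in WT vehicle mice and at 0, 0.563, 0.602, 0.884 and 1.21 CPM in WT CORT mice. Enpp2 was at 116, 185, 521 and 1283 CPM in vehicle mice and at 77.3, 81.5, 115, 140 and 200 CPM in CORT mice. Slc13a4 was at 2.03, 6.15, 7.66 and 19.6 CPM in vehicle mice and at 1.82, 2.42, 2.83, 2.93 and 3.75 CPM in CORT mice. For Folr1 and Enpp2 only H6 and H17 exceeded all CORT mice, and for Slc13a4 also H4, so the groups overlapped for each of these genes.

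By the quasi-likelihood test of edgeR, adjusted by the Benjamini-Hochberg procedure, 4 of the 9 tested genes were lower with CORT in WT mice, where 2.92% of all 14949 genes tested were called in either direction and 2.11% were called lower. On the log2 scale Folr1 fell by 3.35 (SE 0.79, adjusted p = 0.0253), Enpp2 fell by 2.10 (SE 0.52, adjusted p = 0.0337), Slc13a4 fell by 1.69 (SE 0.45, adjusted p = 0.0482) and Ttr fell by 4.57 (SE 1.22, adjusted p = 0.0484). Folr1 passed the filter only through WT vehicle mice H4, H6 and H17, so its p-value is no support by itself. The log2 fold changes of Abca4 (-2.03, SE 0.55, adjusted p = 0.0533), Sostdc1 (-2.001, SE 0.55, adjusted p = 0.0555) and F5 (-3.13, SE 0.87, adjusted p = 0.0592) missed the threshold narrowly in the same test. Kl (-0.71, SE 0.31) and Clic6 (-1.69, SE 0.89) had adjusted p-values of 0.277 and 0.387 in edgeR's test. The median log2 fold change of the 9 genes was -2.03, beside 0.00 over all genes tested.

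When each mouse was left out in turn, Folr1 and Enpp2 were called in 12 of 18 fits, Ttr in 5 and Slc13a4 in 4. In these fits 252 to 464 of all 14949 genes were called. None was called without vehicle mouse H6 or H17 or without CORT mouse H3, H5, H12 or H20, nor in a fit of only the 2 groups compared, where 1.83% of all genes were called. The log2 fold change of Ttr was -4.57 in that fit (SE 1.19, edgeR adjusted p = 0.0901) and -4.97 to -3.34 with each mouse left out. None of these calls was made either without both H6 and H17, a fit chosen after seeing the data. In edgeR's test on the other 16 mice, which pools the spread over all groups, the log2 fold changes were -0.18 for Ttr (SE 1.14, adjusted p = 0.972), -0.33 for Folr1 (SE 0.75, adjusted p = 0.913), -0.29 for Enpp2 (SE 0.42, adjusted p = 0.841) and -0.57 for Slc13a4 (SE 0.43, adjusted p = 0.636). In that fit 1.22% of all genes were called, the unadjusted p was under 0.05 for 0 of the 9, and 3 had a log2 fold change above 0. The standard errors were close to those with all 18 mice. H6 and H17 were left out as the WT vehicle mice with most of these transcripts, so the smaller differences followed from that choice.

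Leaving out H1 and H4 instead, the 2 WT vehicle mice with little Ttr, gave 8 called genes, with a log2 fold change of -5.54 for Ttr (edgeR adjusted p = 0.0111), where 2.21% of all genes were called. The larger difference likewise followed from the mice chosen. Over all genes, 436 were called with 18 mice and 182 without H6 and H17, of which 162 were shared. Without H1 and H4, 330 were called, of which 231 were shared with the 436.

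With the mean log2 CPM of the other choroid plexus genes of each mouse as a covariate, 0 of the 9 genes were called in WT mice. The log2 fold changes were then -0.43 for Ttr (edgeR adjusted p = 0.765), -0.70 for Folr1 (0.5), -0.62 for Enpp2 (0.443) and -0.50 for Slc13a4 (0.576), with standard errors of 0.52, 0.44, 0.35 and 0.36. Over all genes 326 were called with this covariate, 2.18%. With a covariate of myelin genes, chosen after seeing the data, 0 were called as well, with -3.07 for Ttr (edgeR adjusted p = 0.135), against 4.62% of all genes. A difference in how much plexus came with the tissue cannot be told apart by these counts from a lower level of the transcripts in the plexus.

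**Figure D4:**
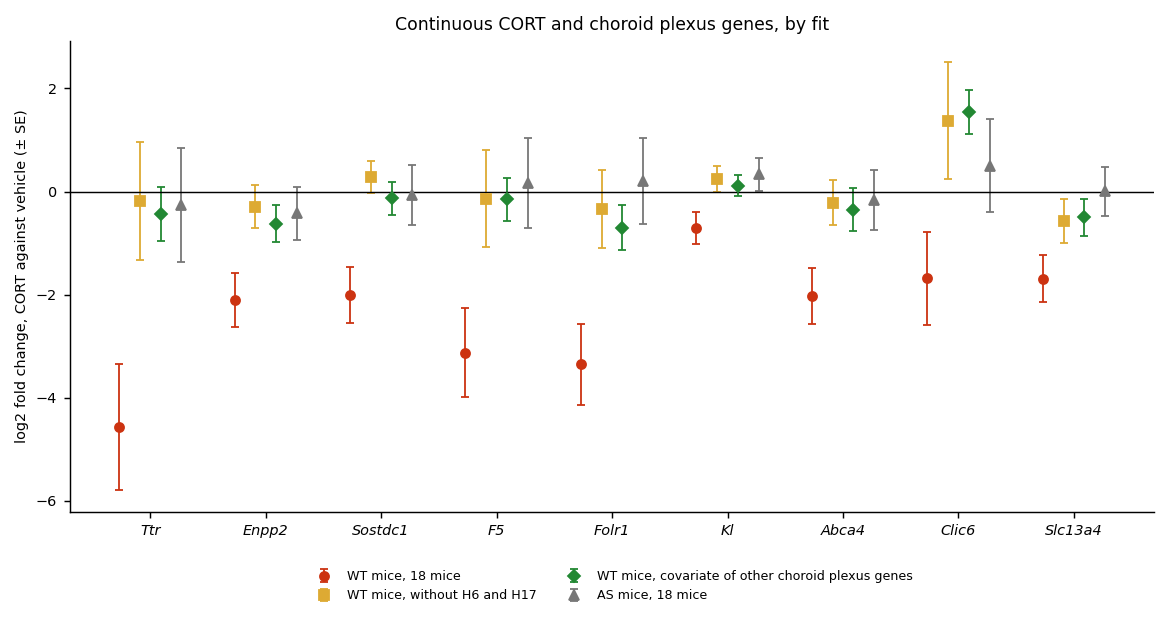
Log2 fold change of CORT against vehicle in the continuous experiment (points, with bars of 1 SE) for the 9 genes tested, in WT mice with 18 mice in the fit, without H6 and H17, and with the other choroid plexus genes as a covariate, and in AS mice. Ttr is at -4.57 in WT mice with 18 mice and between -0.43 and -0.18 in the other 3 series, and Clic6 lies above 0 in those 3.

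Clic6 was the gene called with CORT in WT mice once the other members were a covariate, though 3 of the 9 genes lay above 0 in such fits and Clic6 itself was at -1.69 without one. With the mean of the other 9 genes as a covariate, it rose with CORT in WT mice by 1.94 on the log2 scale (SE 0.42, edgeR adjusted p = 0.0172), where 2.11% of all genes were called in that fit. With the other choroid plexus list as the covariate the value was 1.55 (SE 0.43, edgeR adjusted p = 0.0713), and without H6 and H17 it was 1.38 (SE 1.13, edgeR adjusted p = 0.674), neither past the threshold. In AS mice the value with the 9 genes as a covariate was 0.35 (SE 0.31, edgeR adjusted p = 0.666), where 4.18% of all genes were called. Per 1000 CPM of Ttr, a ratio chosen after its values were seen, Clic6 was at 14.4 to 40.4 in the 5 WT vehicle mice and at 92 to 227 in the 5 WT CORT mice, so that these groups did not overlap. In AS mice it was at 40.8 to 67.9 with vehicle and 63.8 to 194 with CORT, which overlapped in H7. In the acute experiment it was at 14.4 to 600.0 in WT vehicle and 33.3 to 667 in WT CORT mice, which overlapped over most of their ranges. Counts of Clic6 were low, down to 6 in H7.

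Continuous CORT in AS mice gave 0 calls among the 9 genes, against 3.77% of all genes, with 0 at an unadjusted p under 0.05 and 0 by DESeq2, which called 5.17% of all genes. Ttr was at 51.5, 75.1, 134 and 260 CPM in the 4 AS vehicle mice and at 4.44, 15.9, 48.1, 87.8 and 386 CPM in the 5 AS CORT mice, with overlapping groups and H16 the highest. Its log2 fold change was -0.26 (SE 1.10, edgeR adjusted p = 0.952), and the median over the 9 genes was 0.00. The interaction, which is the response to CORT of AS mice less that of WT mice, was above 0 for all 9 genes, with 8 at an unadjusted p under 0.05 and 0 past the adjusted threshold (for Ttr 4.31, SE 1.63, edgeR adjusted p = 1), as was the case for all 14949 genes, 0% called. Since the 9 genes moved together across mice, counts over them, here and in other contrasts, are not of independent genes. Without H6 and H17 the interaction was above 0 for 5 of the 9. The response of these genes to CORT was therefore not shown to differ between the genotypes.

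AS against WT mice with vehicle also gave 0 calls among the 9 genes, against 0.0134% of all genes, with 7 at an unadjusted p under 0.05. All 9 log2 fold changes were below 0, from -0.60 for Kl to -2.93 for Ttr, in edgeR's fit of the 18 mice. Without H6 and H17, 8 of the 9 were above 0, and the median turned from -1.49 to 0.55, so the direction rested on these mice. With CORT, AS and WT mice differed by a median of 0.50 over the 9 genes with 0 calls, against 0.0401% of all genes.

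Of the other 24 choroid plexus genes, 9 were tested in the continuous experiment. In WT mice with CORT, 0 of the 9 were called, all 9 were below 0 and 7 had an unadjusted p under 0.05, with a median log2 fold change of -1.37. Without H6 and H17 the median was -0.13, with 0 at an unadjusted p under 0.05. With all 20 mice, 18 of the list were tested and 7 were called lower, where 1.35% of all genes were called. The median was -3.39, a value that includes H13. Kcnj13, Kcne2 and Cldn2 exceeded 20 counts in 3 mice of a group only in WT vehicle (H6, H13 and H17). Genes tested through the group where they are high lean towards a fall with CORT, so these calls are no support by themselves. In the fits without H9 and H13, Car12 was the gene of this list that passed a CORT contrast. It fell by 0.79 on the log2 scale in AS mice with continuous CORT (SE 0.22, edgeR adjusted p = 0.0491), where 3.77% of all genes were called, and by 0.43 in WT mice with acute CORT (SE 0.09, edgeR adjusted p = 0.0126), where 1.44% were called. Car12 was among the highest of the list in libraries with little Ttr.

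In the acute experiment 6 of the 10 genes passed the filter, Ttr, Enpp2, Sostdc1, Kl, Abca4 and Slc13a4. CORT in WT mice gave 0 calls among them by edgeR's quasi-likelihood test, against 1.44% of all 14611 genes, with 4 at an unadjusted p under 0.05. Ttr was at 0.243 to 970 CPM in WT vehicle mice (median 8.25) and at 0.572 to 26.7 CPM in WT CORT mice (median 1.70), and the groups overlapped. Its log2 fold change was -4.41 (SE 1.24, edgeR adjusted p = 0.0825), and -0.75 without H6 (SE 0.92, edgeR adjusted p = 0.838). DESeq2's Wald test called Ttr with an adjusted p of 0.0399, against 1.94% of all genes, so that its call depended on the test.

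CORT in AS mice gave 0 calls among the 6 genes, against 17.8% of all genes, and for Ttr the log2 fold change was -1.56 (SE 1.69, edgeR adjusted p = 0.551). Ttr was at 0.584 to 10.1 CPM in AS vehicle mice (median 4.93) and at 0.0477 to 6.03 CPM in AS CORT mice (median 0.53), the lowest of which was 1 count. In this contrast 6 of 12 myelin genes fell, with a median log2 fold change of -0.69 over the list and summed levels of 2766 to 5363 CPM with vehicle and 1849 to 3668 CPM with CORT. Enpp2, at 78.2 to 145 and 59.5 to 107 CPM in these groups, had a log2 fold change of -0.50 (SE 0.31, edgeR adjusted p = 0.267). The part of myelin in these values was not tested.

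AS against WT mice gave 0 calls with vehicle, against 0.164% of all genes, with Ttr at -5.15 (SE 1.31, edgeR adjusted p = 0.109), and 0 with CORT, against 25% of all genes. With vehicle, DESeq2's Wald test called Ttr (adjusted p = 0.0222), where 0.705% of all genes were called. Without H6 the value for Ttr with vehicle was -1.50 (SE 0.96, edgeR adjusted p = 0.601), where 0.137% were called, and those of Enpp2, Kl, Abca4 and Slc13a4 turned above 0. In the same fit, Sostdc1 passed with CORT at -0.65 (SE 0.17, edgeR adjusted p = 0.00857), with 2.76 to 3.77 CPM in WT CORT mice and 1.59 to 2.49 CPM in AS CORT mice, which did not overlap, where 25.1% of all genes were called in that fit, and Slc13a4 passed in AS mice at -0.63 (SE 0.20, edgeR adjusted p = 0.0307), where 18.1% were called. The interaction gave 0 calls among the 6, against 4.54% of all genes. All 6 AS CORT mice and 2 AS vehicle mice, H17 to H24, had 2640 to 2850 reads of low alignment quality against 1877 to 2237 in the others, and with this division as a covariate 148 genes (1.01%) were called in AS mice and 0 (0%) between the genotypes with CORT, 0 of them among the 6 genes.

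Liver is a second source of some of these transcripts. In the 20 liver libraries Ttr was at 6214 to 8765 CPM, F5 at 481 to 763 CPM and Enpp2 at 72.9 to 138 CPM, whereas Sostdc1 was at 0 in all of them and the other 6 genes were at 0.651 CPM or less. Alb, the albumin transcript of hepatocytes, was at 89.2 CPM in the continuous hippocampal library H1 and at 30.9 CPM in H2, against 2.79 CPM or less in the other 18. At the ratio of Ttr to Alb in liver, this amount of Alb goes with 5.92 to 10.5 CPM of Ttr in H1, which had 43.6 CPM, and with 2.05 to 3.64 CPM in H2, which had 260 CPM. In H6, H17 and H13 the 8 liver genes summed to 1.15 to 1.90 CPM. The part of liver RNA in the level of Ttr was not tested. Without H1 and H2, a fit chosen after seeing the data, 7 of the 9 genes were called in WT mice with continuous CORT, against 2.45% of all genes.

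The genes whose pattern was most like the 10 were sought among the 14605 other genes tested in the acute experiment, by the r of log2 CPM with the mean log2 CPM of the 10 over 24 mice after subtraction of group means. Among the 12 highest were Lbp (0.80), Snx12 (0.79), Ace (0.77), Tubb4a (0.77), Col8a2 (0.76), Drc7 (0.75), Stk39 (0.74), Col9a3 (0.73), Bicc1 (0.72), Msx1 (0.72) and Prlr (0.72). Over the 18 continuous mice, 9 of the 12 had an r of 0.65 to 0.92, with Drc7 (0.92), Msx1 (0.91) and Lbp (0.89) highest. Snx12 (0.16) and Tubb4a (0.36) were among those that did not keep their place. Ace, Msx1 and Prlr were on the list of other choroid plexus genes.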

How the data were processed

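Hippocampal RNA of 24 mice of the acute and 20 mice of the continuous experiment, and liver RNA of the latter, was sequenced as stranded mRNA libraries with paired reads of 100 bp. Alignment by the authors was to mm10 with STAR, and the raw counts that they deposited were made per gene by HTSeq-count. The annotation release and the strand setting of the counting are not given in the sources used here, so genes that overlap others are uncertain. Rows for reads on no gene, 11.7% to 15.9% of the reads of a hippocampal library, were left out, and 0 columns belonged to no sample.

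Groups were taken from the labels. Nothing says that group members came from separate litters, so p-values measure the spread between these mice. Gene symbols, positions and exon lengths came from GENCODE M21 (GRCm38), which held 52081 of 55414 acute and 55394 of 55573 continuous gene IDs. Genes with more than 20 normalized counts in at least 3 mice of a group were tested, the filter of the study. Contrasts of the 4 groups of an experiment were fitted together on counts with edgeR 4.0.16 (R 4.3.3; TMM normalization, quasi-likelihood F test, Benjamini-Hochberg adjustment over all genes tested, threshold 0.05). Levels are given as TMM-normalized CPM, with a prior count of 2 on the log2 scale. Correlations used two-sided permutation tests with 100000 permutations of mice within groups. The fitting steps were tested on simulated data.

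All 10 genes are named; of the other choroid plexus genes, Kcnj13, Otx2, Aqp1, Kcne2, Cldn2 and any that passed a CORT contrast; and the 12 genes most like the 10 in the acute mice, of which 1 is not reported here. The members and lists were chosen with earlier results of these data known. Alternatives were DESeq2 1.42.0, its size factors, no filter, only the groups compared, a threshold of 0.01, each mouse left out, all 20 continuous mice, and covariates for the other choroid plexus genes, the other 9 members and low-quality reads. Fits without H6 and H17, without H1 and H2, without H1 and H4, and with a myelin covariate were added after seeing the data.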

Additional observations from a re-analysis of the deposited data

Results flagged for a closer look

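Within groups of 5 or 6 mice, H9 and H13 included, a mouse that stood far from the others of its group (Dixon's test at the 95% level) was found in 33 of 80 combinations of gene and group, where chance gives about 1 in 20 for normally distributed values. The test was run on CPM, which are skewed for these genes and whole counts near 0 for some, so that the count cannot be set against that rate. Acute H6 (WT vehicle) stood apart for all 10 genes, in CPM Ttr (970), Enpp2 (481), Kl (63.8), F5 (14.8), Clic6 (14), Sostdc1 (10.7), Slc13a4 (9.89), Slc4a5 (7.75), Abca4 (5.31) and Folr1 (4.14). In the continuous experiment H13 (WT vehicle), which the study left out, stood apart for 9 genes, Ttr (12147.5), Enpp2 (4816), Kl (435), Clic6 (219), F5 (156), Slc4a5 (95.9), Folr1 (88.5), Slc13a4 (74.8) and Abca4 (68.1). H16 (AS CORT), which it kept, stood apart for 8 genes, Ttr (386), Enpp2 (340), Kl (79), Clic6 (29.1), F5 (8.95), Abca4 (4.78), Sostdc1 (4.78) and Slc4a5 (3.9). H9 (AS vehicle), which the study left out, stood apart for Enpp2 (830), Slc13a4 (14.9), Folr1 (4.83) and Slc4a5 (4.34). The remaining 2 were Slc13a4 in acute H11 (WT CORT, 4.45 CPM) and Slc4a5 in acute H20 (AS CORT, 0.15 CPM, which is 3 counts). Continuous H17 and H6 were not among them, since H13 was the highest of their group. These results share mice and are not independent of each other.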

How the results depend on the processing

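In WT mice with continuous CORT, 4 of the 9 genes tested were called, all lower. The number called was 7 by DESeq2 (4.08% of all genes called), 8 with no filter on low counts (1.29%), 6 of 10 with all 20 mice (1.35%), 0 at an adjusted p under 0.01, 0 in a fit of only the groups compared, 0 with the other choroid plexus genes as a covariate, 0 with the myelin covariate, 1 with the other 9 members as covariate (Clic6, at 1.94 instead of -1.69 and so reversed), 0 without H6 and H17, 7 without H1 and H2 and 8 without H1 and H4. When each mouse was left out in turn it was 0 to 7, where 252 to 464 of all 14949 genes were called. It was 0 without H6, H17, H3, H5, H12 or H20, and 7 without H1 (324 of all genes called) or H4 (417). In the acute experiment, with 0 called in each contrast, CORT in WT mice gave 1 by DESeq2 (1.94% of all genes) and 2 with no filter (Ttr and F5, 0.64%). It gave 0 to 1 with each mouse left out (Ttr, without H1, H2 or H5, with 233, 165 and 197 of all 14611 genes called). CORT in AS mice gave 2 in a fit of only the groups compared (Enpp2 and Slc13a4, 18.9% of all genes) and 0 to 1 with each mouse left out (Slc13a4, without H6, 18.1%). AS against WT with vehicle gave 1 by DESeq2 (0.705%) and 1 with no filter (0.067%), Ttr both times. AS against WT with CORT gave 1 in a fit of only the groups compared (Sostdc1, 24.1%), 1 with the other 9 members as covariate (Kl, 21.7%) and 0 to 1 with each mouse left out (Sostdc1, without H6, 25.1%). In the continuous experiment AS against WT with vehicle gave 3 without H1 and H4 (0.12% of all genes). The median pairwise r lay between 0.32 and 0.72 in the acute experiment when each mouse was left out. The difference in mean log2 CPM of the 10 genes between CORT and vehicle stayed below 0 with each mouse left out, with other size factors and with all 20 continuous mice, and was -0.65 in WT and -0.74 in AS mice of the acute and -1.77 in WT and -0.36 in AS mice of the continuous experiment. It was -0.06 in acute WT mice without H6, -1.03 in continuous WT mice without H17 and -0.03 in continuous AS mice without H7. No paired analysis was possible because the groups compared share no mouse number within an experiment. With 4 or 5 mice in a group and a within-group SD of 2.24 for Ttr on the log2 scale, the standard error of its log2 fold change with continuous CORT was 1.10 to 1.22. Slc4a5 and Folr1 were near the floor of 3 counts in most acute mice. The cause of these changes was not tested. Over all genes, continuous CORT in WT mice gave 436 calls, but 274 with only the groups compared, 690 with the myelin covariate, 203 with all 20 mice and 182 without H6 and H17, and in AS mice 564, but 966 with the myelin covariate and 221 with all 20 mice. The 2 and 6 calls between the genotypes with vehicle and with CORT were 18 and 44 by DESeq2. Acute CORT in AS mice gave 2596, but 1593 with the choroid plexus covariate, 964 with myelin and 148 with low-quality reads as covariate. Acute CORT in WT mice gave 210, but 133 with only the groups compared. Between the acute genotypes 24 calls with vehicle were 103 by DESeq2 and 3 with only the groups compared, and 3655 with CORT were 0 with the low-quality covariate. The acute interaction gave 664 calls, but 1208 by DESeq2, 297 with no filter, 216 with myelin and 1 with low-quality reads as covariate.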
